A study of Heliocidaris erythrogramma with 5 samples.

Results

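Larvae of the Australian sea urchin *Heliocidaris erythrogramma* (*He*) at 42 h post-fertilization (hpf) were compared with larvae at 36 hpf, the earliest step among the larval single-cell RNA-seq libraries analysed here. The comparison used 4268 cells at 42 hpf and 5314 cells at 36 hpf, which is 9582 of the 26740 cells kept from 5 libraries. Cells were kept when they had over 200 genes, under 10000 unique molecular identifiers (UMIs) and under 4000 genes, and their UMIs were summed within each library. At each age, whole larvae were dissociated, fixed in methanol and captured as 1 library, and the larvae shared every condition stated in the labels except age. Levels are given as counts per 1000000 UMIs of the library (CPM), which count 3′ ends and are not scaled by gene length, so a level was compared between ages and not between genes.

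*He* is a lecithotroph, a species whose larvae live on maternal stores and do not feed, and it forms the adult rudiment soon after gastrulation. In sea urchins the skeleton is made by skeletogenic cells, which depend on the homeodomain transcription factor Alx1 and secrete a mineralized matrix. Pigment cells are another mesodermal type, which makes quinone pigments through a polyketide synthase. The coelomic pouches are mesodermal sacs, of which the left joins ectoderm to build the rudiment.

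With 1 library per age there were no replicates, so no difference could be checked against replicate spread and no p-value was computed. Brackets give 95% intervals for counting error only, from an exact conditional binomial interval for a ratio of 42 hpf over 36 hpf and a Clopper-Pearson interval for a share of cells. The kept cells held 8632541 UMIs at 42 hpf and 7987387 at 36 hpf, with a median per cell of 1634.5 UMIs at 42 hpf and 1311 at 36 hpf. A count of 3 UMIs amounts to 0.348 CPM at 42 hpf and 0.376 CPM at 36 hpf. The libraries shared 9 cell barcodes.

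The 42 hpf library stood apart from the other 4 in several ways that bear on the results. It had the most UMIs per cell of the 5 libraries and the highest share of UMIs from cytosolic ribosomal protein genes, 24.2% against 17.04% at 36 hpf and between 11.6% and 16.7% at the later ages. It also had the highest share of cells with an *Alx1* or *Alx4* UMI and the lowest share of cells with pigment markers. Age and library cannot be told apart in any of these values. In sums over whole larvae, more cells of a type and more RNA per cell cannot be told apart either, and the shares of cells below bear on this only as far as detection allows.

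Of 11349 genes with at least 50 UMIs over both libraries, 175 (1.54%) lay at or above a ratio of 2 at 42 hpf and 210 (1.85%) at or below 0.5. These thresholds define "rose" and "fell" below. The interval left out 1 for each of these genes, and it lay wholly past 2-fold for 77 genes that rose and 41 that fell. Changes of at least 4-fold were seen in 26 genes that rose and 10 that fell. The median log2 ratio of all genes tested was −0.17, and the 5th and 95th percentiles were −0.76 and 0.53. Genes that rose made up 45.5% of those past 2-fold on CPM, but 66.1% after scaling by the size factors of DESeq2 and 71.2% after TMM scaling, which brought the median log2 ratio to −0.04 and −0.00.

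**Figure D1:**
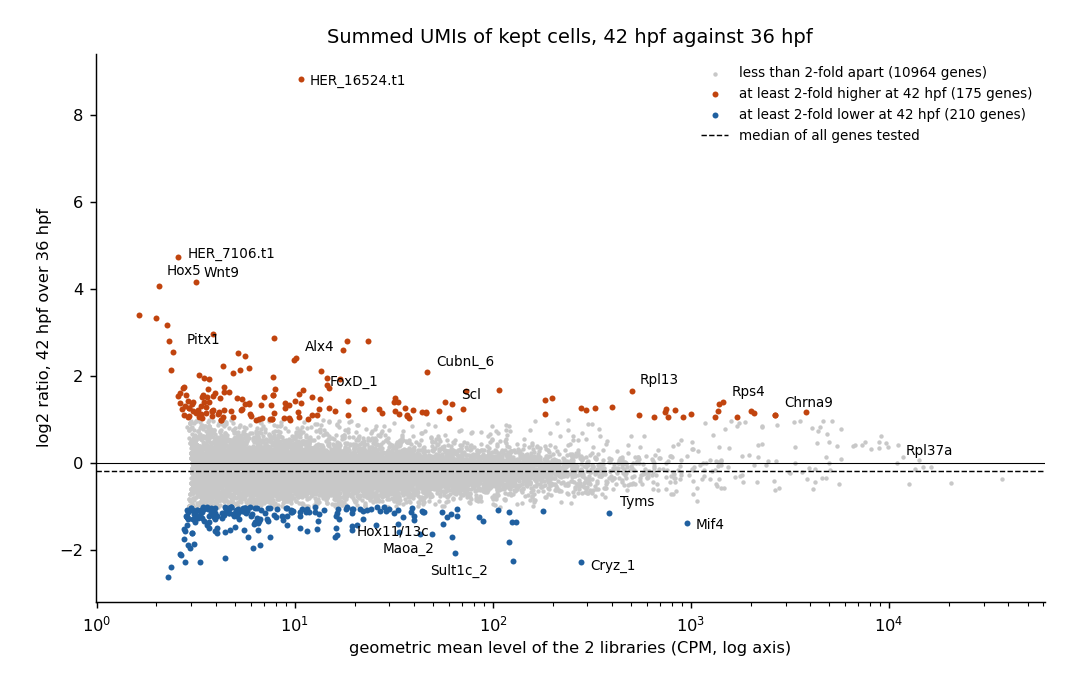
Each point is 1 of the 11349 genes tested, with its geometric mean level over both libraries (CPM, log axis) on the x axis and its log2 ratio of 42 hpf over 36 hpf on the y axis. The 175 genes at least 2-fold higher are orange, the 210 at least 2-fold lower are blue, and the dashed line marks the median of −0.17.

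Genes of the skeletogenic and mesodermal network were among those that rose the most. In a list of mesoderm and skeletogenic regulators, 6 of the 17 features tested rose (35.3%, against 1.54% of all genes) and none fell. The median log2 ratio was 0.24 against −0.17 for all genes tested. *Alx4*, a paralog of *Alx1*, had 202 UMIs at 42 hpf and 35 at 36 hpf (23.4 CPM at 42 hpf and 4.38 at 36 hpf), a ratio of 5.34 (3.72 to 7.88). The 3 features named *Alx1* summed to 254 UMIs at 42 hpf and 41 at 36 hpf (29.4 CPM at 42 hpf and 5.13 at 36 hpf), a ratio of 5.73 (4.11 to 8.18). Both genes were lower at every later age than at 42 hpf, with *Alx1* at 10.2, 6.20 and 2.31 CPM and *Alx4* at 4.91, 1.19 and 1.98 CPM at 48, 56 and 60 hpf. The age given as 56 hpf follows the label, while the name of its file gives an earlier hour.

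Regulators of other mesoderm rose as well. *Scl*, a bHLH factor known from blood formation in vertebrates, had 860 UMIs at 42 hpf and 311 at 36 hpf (99.6 CPM at 42 hpf and 38.9 at 36 hpf), a ratio of 2.56 (2.24 to 2.92). *GataC*, which encodes a zinc finger factor, was at 17.5 CPM at 42 hpf and 6.64 at 36 hpf, a ratio of 2.64 (1.92 to 3.68). *Hhex*, a homeobox gene, was at 53.6 CPM at 42 hpf and 25.04 at 36 hpf, a ratio of 2.14 (1.81 to 2.54). With equal weight for each cell *GataC* and *Hhex* both had a log2 ratio of 0.87, short of 2-fold, and *Scl* stayed past it. Regulators in the same list that passed neither threshold included *Ese* (ratio 1.30), *FoxN2/3* (1.05), *Ets1/2* (0.97) and *Tel* (0.58).

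Genes of the biomineral matrix followed, from fewer UMIs. In a list of biomineral genes, 10 of 51 features reached the minimum of 50 UMIs. Of these, 3 rose (30.0%, against 1.54% of all genes) and none fell. *Msp130r2*, which encodes a relative of the surface glycoprotein Msp130 of skeletogenic cells, had 233 UMIs at 42 hpf and 62 at 36 hpf, a ratio of 3.48 (2.62 to 4.68). *Sm37*, a spicule matrix gene, had 128 UMIs at 42 hpf and 47 at 36 hpf (ratio 2.52, 1.79 to 3.60). *Colp4a_2*, a collagen gene, had 572 UMIs at 42 hpf and 233 at 36 hpf (ratio 2.27, 1.95 to 2.66), but its log2 ratio lay inside 2-fold after thinning (0.84), with equal weight per cell (0.87), without the 5% of cells with the most UMIs (0.97) and outside the Alx cells and pigment marker cells (0.51). The 2 *Sm50* features held 10 UMIs at 42 hpf and 8 at 36 hpf, too few for a comparison. The 12 features of the *Msp130* family summed to 65.7 CPM at 42 hpf and 34.8 at 36 hpf, a ratio of 1.89 (1.63 to 2.19).

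The rise of the *Alx* genes went with more cells in which they were detected. As counted, 111 of 4268 cells at 42 hpf had an *Alx1* or *Alx4* UMI (2.60%, 2.14 to 3.12), against 27 of 5314 cells at 36 hpf (0.508%, 0.335 to 0.738). These cells are called Alx cells here. After each cell was thinned to 500 UMIs, which left out 11 cells at 36 hpf and none at 42 hpf, the shares were 0.984% (0.710 to 1.33) at 42 hpf and 0.245% (0.131 to 0.419) at 36 hpf. The share at the later ages was 0.270%, 0.306% and 0.201% after thinning. As a background, *Alx* UMIs were found in 0 of 145 cells with pigment markers at 42 hpf, where the interval reaches up to 2.51%, and in 1 of 352 at 36 hpf. Those pigment cells had a median of 1559 UMIs at 42 hpf and 1405 at 36 hpf, and the Alx cells 3815 UMIs at 42 hpf and 2242.5 at 36 hpf. Without the 5% of cells with the most UMIs in each library, the shares as counted were 1.90% at 42 hpf and 0.456% at 36 hpf.

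**Figure D2:**
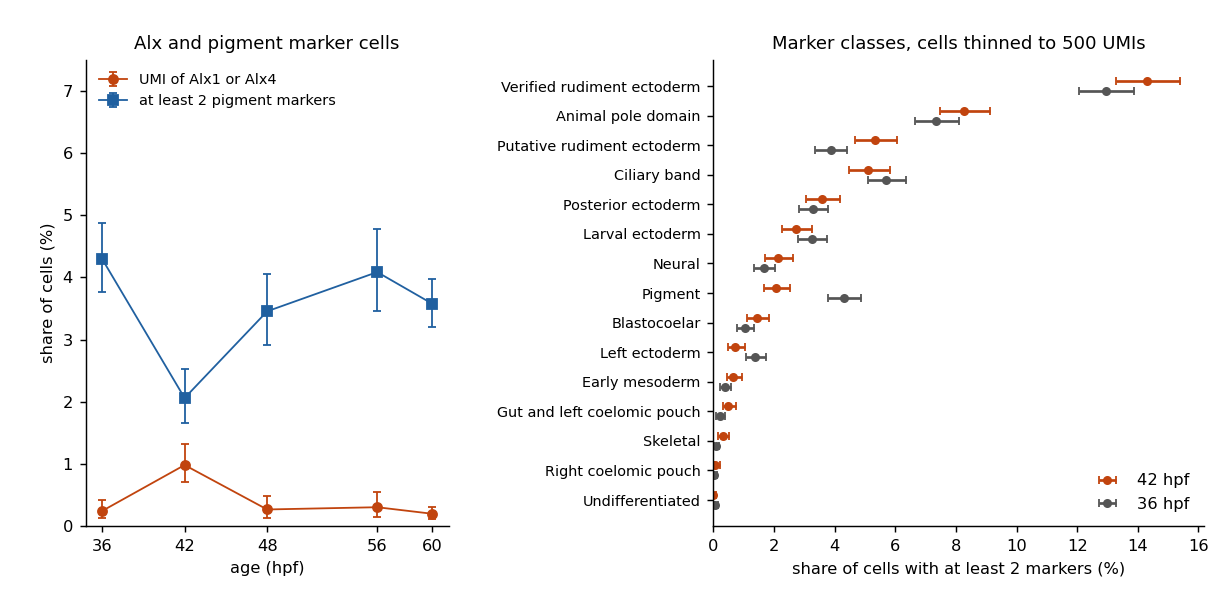
Percentages of cells after thinning to 500 UMIs, with 95% Clopper-Pearson intervals for counting error. On the left, cells with an *Alx1* or *Alx4* UMI (circles, 0.984% at 42 hpf) and cells with at least 2 pigment markers (squares, 2.06% at 42 hpf) are plotted by age. On the right, cells with at least 2 markers of each of 15 classes are shown for 42 hpf above 36 hpf.

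Secreted Wnt ligands, a homeobox gene and a BMP antagonist were prominent among the other genes that rose. *Wnt9*, which encodes a secreted Wnt ligand, showed the largest ratio of the genes with a symbol, with 116 UMIs in 44 cells at 42 hpf and 6 UMIs in 6 cells at 36 hpf. This was 13.4 CPM at 42 hpf and 0.751 at 36 hpf, a ratio of 17.9 (7.97 to 49.7), and the level was 2.45, 2.15 and 1.73 CPM at 48, 56 and 60 hpf. *Wnt10* had 96 UMIs at 42 hpf and 20 at 36 hpf, a ratio of 4.44 (2.72 to 7.59). The other 10 Wnt ligands tested passed neither threshold, with *Wnt1* at 14.6 CPM at 42 hpf and 9.64 at 36 hpf and *Wnt7* at 9.38 CPM at 42 hpf and 17.9 at 36 hpf. Thus 2 of 12 Wnt ligands rose (16.7%, against 1.54% of all genes). Of 18 Wnt receptors and modulators, none rose and 1 fell (5.56%, against 1.85% of all genes). It was *Lrp6L_1* (ratio 0.469), whose UMIs lay mostly in cells with pigment markers.

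*Pitx1*, a paired-type homeobox gene, had 107 UMIs at 42 hpf and 17 at 36 hpf, a ratio of 5.82 (3.47 to 10.4). *Grem*, which encodes the BMP antagonist Gremlin, had 288 UMIs at 42 hpf and 69 at 36 hpf (ratio 3.86, 2.96 to 5.10). *Sim*, a bHLH-PAS factor chosen after its values were seen, had 463 UMIs at 42 hpf and 162 at 36 hpf (ratio 2.64, 2.21 to 3.18), but its log2 ratio was 0.66 after thinning of cells to 500 UMIs, against 1.40 as counted. *CubnL_6*, related to the endocytic receptor cubilin of mammals, had 835 UMIs at 42 hpf and 179 at 36 hpf (96.7 CPM at 42 hpf and 22.4 at 36 hpf), a ratio of 4.32 (3.67 to 5.10). These 4 genes were all lower in the 48 hpf library than at 42 hpf, at 2.28, 12.6, 16.1 and 41.4 CPM in the same order.

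The Alx cells held much of the RNA of these genes. At 42 hpf they contributed 80.2% of all *Wnt9* UMIs, 90.6% of *Wnt10*, 73.4% of *Msp130r2*, 61.7% of *Pitx1*, 61.6% of *Sim*, 58.6% of *CubnL_6*, 57.99% of *Grem* and 36.6% of *Scl*. For *Alx4*, *Grem*, *Sim* and *Scl*, levels within the Alx cells differed less between the ages than levels in the whole libraries. Within Alx cells *Alx4* was at 464 CPM at 42 hpf and 561 CPM at 36 hpf (ratio 0.826, 0.572 to 1.23), *Grem* at 383 CPM at 42 hpf and 347 at 36 hpf (1.11, 0.700 to 1.83), *Sim* at 654 CPM at 42 hpf and 677 at 36 hpf (0.967, 0.695 to 1.38) and *Scl* at 723 CPM at 42 hpf and 1007 at 36 hpf (0.718, 0.544 to 0.961). *Alx1* and *Alx4* chose these cells, so their own level there is a description only. *Wnt9* differed in this respect, at 213 CPM in Alx cells of 42 hpf and 33.0 CPM in those of 36 hpf, a ratio of 6.47 (1.74 to 54.2) that rests on 2 UMIs at 36 hpf.

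Outside the Alx cells and the pigment marker cells, most of these genes were still above their 36 hpf level. There *FoxD_1* had a ratio of 4.26 (3.11 to 5.95), *CubnL_6* 2.52 (2.05 to 3.12), *Grem* 2.39 (1.70 to 3.43), *GataC* 2.34 (1.67 to 3.35), *Scl* 2.02 (1.73 to 2.36) and *Hhex* 1.96 (1.64 to 2.34). In the same cells *Wnt10* had 9 UMIs at 42 hpf and 13 at 36 hpf, so its rise lay inside the Alx cells. *Sim* had a ratio of 1.353 (1.07 to 1.72) there, under the threshold.

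At 42 hpf the 111 Alx cells did not all carry the same genes. *Wnt10* was detected in 18 of them, of which 17 had *Sim*, 14 had *Grem*, 5 had *Wnt9*, and none had *Pitx1* or *Msp130r2*. *Msp130r2* was detected in 17 Alx cells, among them all 7 with *Sm37* and 13 of the 34 with *Scl*, and none of these 17 had *Wnt10*, *Pitx1* or *Grem*. *Wnt9* was detected in 31 Alx cells, which included 10 of the 15 with *Pitx1*, 13 of the 20 with *Hox8_1* and 2 of the 17 with *Msp130r2*. So *Wnt10* UMIs were not found in the same Alx cell as those of *Msp130r2* or *Sm37*, the biomineral genes examined in this way, while *Wnt9*, *Pitx1* and *Hox8_1*, of which *Wnt9* and *Hox8_1* mark the right coelomic pouch in the study, were often found together. Detection was incomplete at this depth, and a gene not seen in a cell may still be expressed there.

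Among genes linked to gut and coelom, 2 forkhead factors rose, but sums over whole larvae do not place their UMIs in these tissues. Over all 16 forkhead genes tested, 2 rose (12.5%, against 1.54% of all genes) and none fell, with a median log2 ratio of 0.07. Of 20 gut and coelom genes tested, 3 rose and none fell, with a median log2 ratio of 0.14. *FoxD_1* was at 28.1 CPM at 42 hpf and 6.51 CPM at 36 hpf, a ratio of 4.32 (3.19 to 5.95), and stayed near its 42 hpf level later, at 33.99, 19.6 and 31.3 CPM. *FoxF*, known from visceral mesoderm in other animals, had 48 UMIs at 42 hpf and 21 at 36 hpf (ratio 2.11, 1.24 to 3.72). *MyoD2*, of the myogenic bHLH family, had 81 UMIs at 42 hpf and 29 at 36 hpf (ratio 2.58, 1.67 to 4.098), and 66.7% of its UMIs at 42 hpf lay in Alx cells. *Endo16*, a gut marker of sea urchins, had 61 UMIs at 42 hpf and 81 at 36 hpf and passed neither threshold.

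Among 6 Hox and ParaHox genes tested, *Hox5* rose and *Hox11/13c* fell (16.7% each, against 1.54% and 1.85% of all genes). *Hox5* had 73 UMIs in 21 cells at 42 hpf and 4 UMIs in 4 cells at 36 hpf, a ratio of 16.9 (6.32 to 63.6). A single cell held 29 of the 73 UMIs, and *Hox5* was at 2.45, 6.20 and 10.1 CPM at the later ages. *Hox8_1* was at 20.6 CPM at 42 hpf and 10.6 at 36 hpf (ratio 1.94), just under the threshold.

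**Figure D3:**
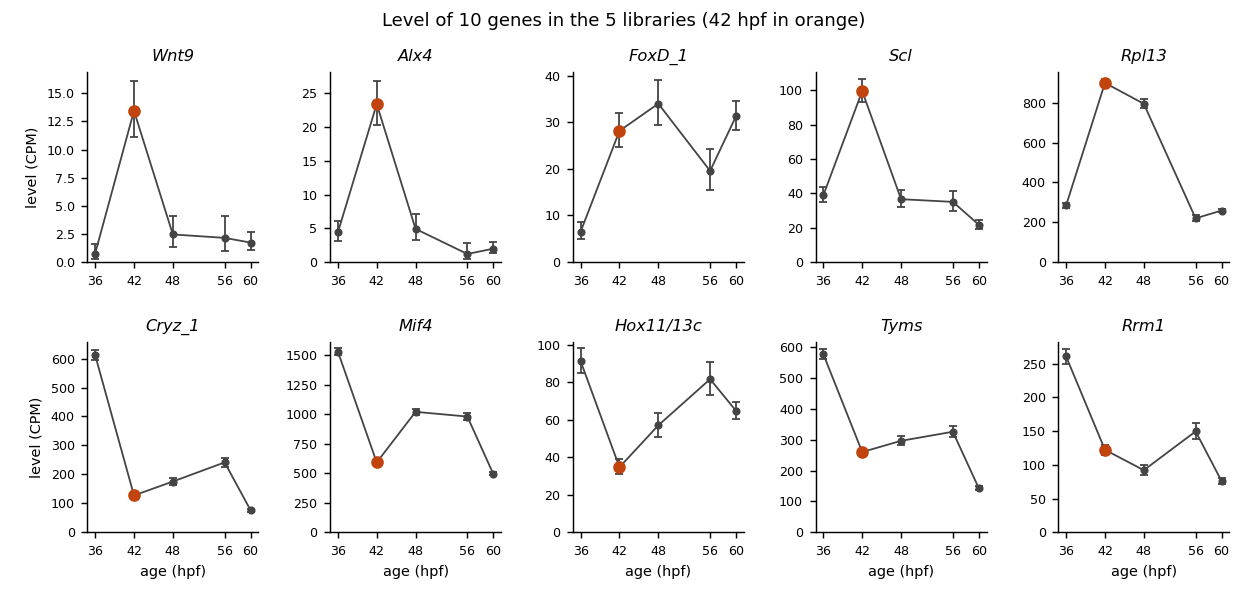
Level in CPM of 10 genes at each of the 5 ages (hpf), with 95% Poisson intervals for counting error and the 42 hpf library in orange. *Wnt9*, *Alx4* and *Scl* were highest at 42 hpf (13.4, 23.4 and 99.6 CPM), while *Cryz_1*, *Mif4* and *Tyms* were highest at 36 hpf (612, 1532 and 577 CPM).

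Genes of pigment cells led those that fell. In a list of pigment cell genes, 7 of the 18 features tested fell (38.9%, against 1.85% of all genes) and none rose. The median log2 ratio was −0.71. The polyketide synthase gene *Pks1* had 199 UMIs at 42 hpf and 432 at 36 hpf (23.1 CPM at 42 hpf and 54.1 at 36 hpf), a ratio of 0.426 (0.359 to 0.505). *Mif4*, of the macrophage migration inhibitory factor family, had 5108 UMIs at 42 hpf and 12236 at 36 hpf (592 CPM at 42 hpf and 1532 at 36 hpf), a ratio of 0.386 (0.374 to 0.399). *Hox11/13c*, which the study uses as a pigment marker, had 299 UMIs at 42 hpf and 728 at 36 hpf, a ratio of 0.380 (0.331 to 0.435). Not every member moved this way: *Mif1*, of the same family, was at 27.0 CPM at 42 hpf and 13.6 at 36 hpf (ratio 1.98). Several of these genes were picked by the study from libraries that include these, so their shared direction is not independent evidence.

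A quinone reductase, a sulfotransferase and a monoamine oxidase fell further. *Cryz_1*, a quinone reductase of the zeta-crystallin family, had 1097 UMIs at 42 hpf and 4890 at 36 hpf (127 CPM at 42 hpf and 612 at 36 hpf), a ratio of 0.208 (0.194 to 0.222). *Sult1c_2*, a sulfotransferase, had 503 UMIs at 42 hpf and 2196 at 36 hpf, a ratio of 0.212 (0.192 to 0.234). *Maoa_2*, a monoamine oxidase, had 272 UMIs at 42 hpf and 1048 at 36 hpf, a ratio of 0.240 (0.209 to 0.275). None of these 3 genes is a marker in the list, yet their UMIs lay mainly in pigment marker cells, which held 4585 of the 4890 *Cryz_1* UMIs at 36 hpf.

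Fewer cells carried pigment markers at 42 hpf. As counted, 145 of 4268 cells (3.40%) had at least 2 of the markers *Mif4*, *Pks1* and *Hox11/13c*, against 352 of 5314 (6.62%) at 36 hpf. At 500 UMIs per cell the shares were 2.06% (1.66 to 2.53) at 42 hpf and 4.30% (3.77 to 4.88) at 36 hpf. At the later ages, 3.46%, 4.09% and 3.58% of thinned cells carried 2 markers, so the 42 hpf library was the lowest of the 5. As a background, *Mif4* UMIs were found in 8 of 111 Alx cells (7.21%) at 42 hpf and in 2 of 27 (7.41%) at 36 hpf.

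Within pigment marker cells the ratios of marker genes and enzymes were all nearer to 1 than in the whole libraries, and those of the 3 enzymes stayed past 2-fold. *Pks1*, one of the genes that chose the cells, was at 677 CPM at 42 hpf and 756 CPM at 36 hpf (ratio 0.896, 0.748 to 1.07), and *Mif4* at 15933 CPM at 42 hpf and 20457 at 36 hpf. *Cryz_1*, which took no part in the choice, was at 3621 CPM at 42 hpf and 8349 at 36 hpf (ratio 0.434, 0.404 to 0.465). *Sult1c_2* was at 1647 CPM at 42 hpf and 3746 at 36 hpf (0.440, 0.396 to 0.488), and *Maoa_2* at 876 CPM at 42 hpf and 1792 at 36 hpf (0.489, 0.422 to 0.565).

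With Alx cells and pigment marker cells left out, the median of the pigment list no longer lay below that of all genes, and 98 of the 210 genes that fell were still called. Another 63 of the 210 had too few UMIs left to be tested. In the other cells *Cryz_1* (ratio 0.429, 0.346 to 0.529) and *Sult1c_2* (0.438, 0.320 to 0.593) still fell, while *Mif4* (0.856) and *Maoa_2* (0.570) did not pass 2-fold. *Kcnk4*, a potassium leak channel gene that fell in the whole libraries (484 UMIs at 42 hpf and 1120 at 36 hpf, ratio 0.400), had 95 UMIs at 42 hpf and 72 at 36 hpf in the other cells, a ratio of 1.23 (0.894 to 1.69). *Chrna7-3*, annotated as an acetylcholine receptor subunit, also fell (169 UMIs at 42 hpf and 464 at 36 hpf, ratio 0.337), and 153 of those at 42 hpf and 441 at 36 hpf lay in pigment marker cells. Of the 175 genes that rose, 126 were also called without these cells.

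Cytosolic ribosomal protein genes rose as a broad group. Of 91 features in the list, 70 were tested, of which 25 rose (35.7%, against 1.54% of all genes) and none fell, with a median log2 ratio of 0.86. Relative to the median of all genes this was 1.04 higher, and between 0.97 and 1.11 higher under the alternative scalings, filters and choices of cells. *Rpl13* was at 901 CPM at 42 hpf and 284 CPM at 36 hpf, a ratio of 3.17 (3.02 to 3.32), and *Rps4* at 2374 CPM at 42 hpf and 886 at 36 hpf, a ratio of 2.68 (2.61 to 2.75). After thinning, *Rps4* UMIs were found in 62.7% of cells at 42 hpf and 33.0% at 36 hpf, so its rise was spread over the library.

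The ribosomal protein genes did not rise evenly. Small subunit genes had a median log2 ratio of 1.07, with 15 of 28 past 2-fold, and large subunit genes 0.77, with 10 of 42. Split by their level at 36 hpf, 12 of the lowest 24, 12 of the middle 23 and 1 of the highest 23 rose. The highest 23 still had a median log2 ratio of 0.42, with ratios from 0.912 to 2.25. Among them, *Rpl37a* had 124645 UMIs at 42 hpf and 122577 at 36 hpf (ratio 0.941). *Rpl6* had 111559 UMIs at 42 hpf and 113158 at 36 hpf (ratio 0.912). Of all 70, the interval lay above 1 for 59 and below 1 for 2. The level at 36 hpf enters both the split and the ratio, so the split is a description only.

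The ribosomal share of a cell's UMIs was higher at 42 hpf in each kind of cell examined. Its median was 33.6% in Alx cells of 42 hpf and 25.2% in those of 36 hpf, 13.6% at 42 hpf and 10.6% at 36 hpf in pigment marker cells, and 19.7% at 42 hpf and 15.3% at 36 hpf in the other cells. The interquartile ranges of the ages overlapped in each of the 3 kinds. Mitochondrial ribosomal protein genes (0 of 36 past 2-fold, median −0.23) and translation factors (0 of 50, median −0.17) lay near all genes. Whether the ribosomal difference belongs to the age or to the library cannot be told apart with 1 library.

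**Figure D4:**
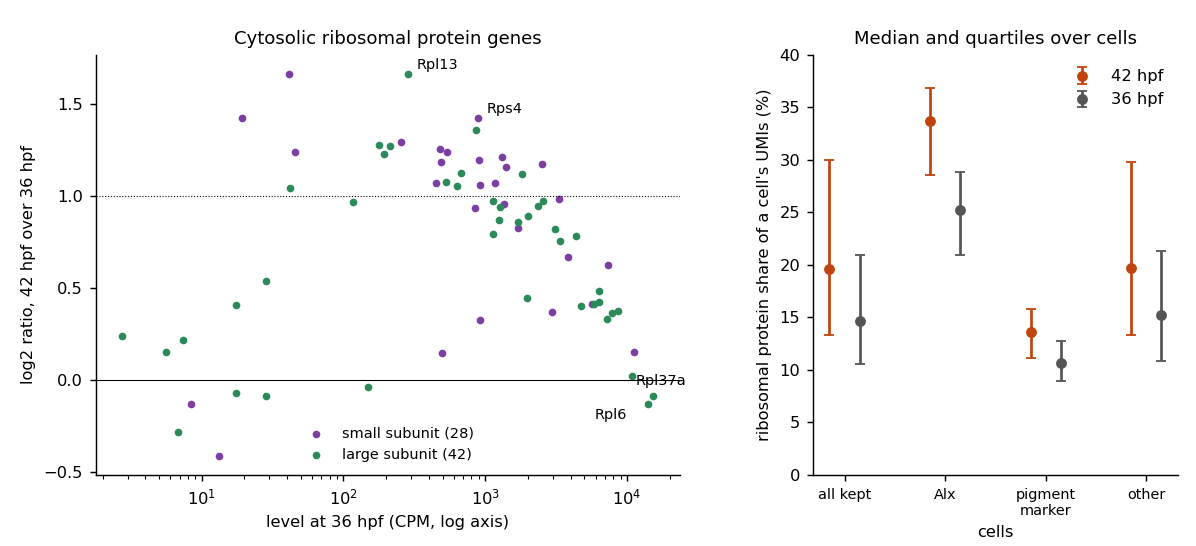
On the left, the log2 ratio of 42 hpf over 36 hpf of 70 cytosolic ribosomal protein genes is plotted against their level at 36 hpf (CPM, log axis), with the small subunit in purple and the large subunit in green; *Rpl13* lies at 284 CPM and *Rpl37a* and *Rpl6* lie below 0. On the right, the median and quartiles over cells of the ribosomal share of UMIs (%) are shown for 42 hpf left of 36 hpf, with 19.6% at 42 hpf and 14.7% at 36 hpf over all kept cells.

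Genes of DNA replication and mitosis were lower at 42 hpf by small amounts. Of 49 replication genes tested, 4 fell (8.16%, against 1.85% of all genes) and none rose. The interval lay below 1 for 35 and above 1 for none, with a median log2 ratio of −0.43. Of 30 mitosis genes, 2 fell (6.67%) and none rose, and the interval lay below 1 for 22, with the same median. Over all genes the interval lay below 1 for 31.3% and above 1 for 8.21%. Relative to all genes, the replication median lay between −0.38 and −0.24 and the mitosis median between −0.31 and −0.22 in all alternatives.

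Of the 4 replication genes that fell, *Tyms* and *Rrm1* act in nucleotide supply. *Tyms*, thymidylate synthase, had 2244 UMIs at 42 hpf and 4609 at 36 hpf (260 CPM at 42 hpf and 577 at 36 hpf), a ratio of 0.450 (0.428 to 0.474). *Rrm1*, the large subunit of ribonucleotide reductase, had 1055 UMIs at 42 hpf and 2082 at 36 hpf (122 CPM at 42 hpf and 261 at 36 hpf), a ratio of 0.469 (0.435 to 0.505). After thinning, *Tyms* was found in 10.3% of cells at 42 hpf and 20.5% at 36 hpf, and *Rrm1* in 5.06% at 42 hpf and 10.2% at 36 hpf. With TMM scaling their log2 ratios were −0.98 and −0.92, just short of 2-fold. The other two were the primase gene *Prim1* (19 UMIs at 42 hpf and 42 at 36 hpf, ratio 0.419, 0.230 to 0.736) and *Orc6*, of the origin recognition complex (57 UMIs at 42 hpf and 110 at 36 hpf, ratio 0.479, 0.342 to 0.666). *Dut* (dUTPase, ratio 0.540) and the mitotic kinase genes *Cdk1* (0.591) and *Plk1* (0.571) passed no threshold. The mitosis genes that fell were *Cdc25*, a phosphatase that activates cyclin-dependent kinases (30 UMIs at 42 hpf and 59 at 36 hpf, ratio 0.470, 0.293 to 0.742), and *Ccnr2*. The cyclin *Ccnr2*, which the study uses as a marker of undifferentiated cells, had 11 UMIs at 42 hpf and 49 at 36 hpf, a ratio of 0.208 (0.0974 to 0.405).

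**Figure D5:**
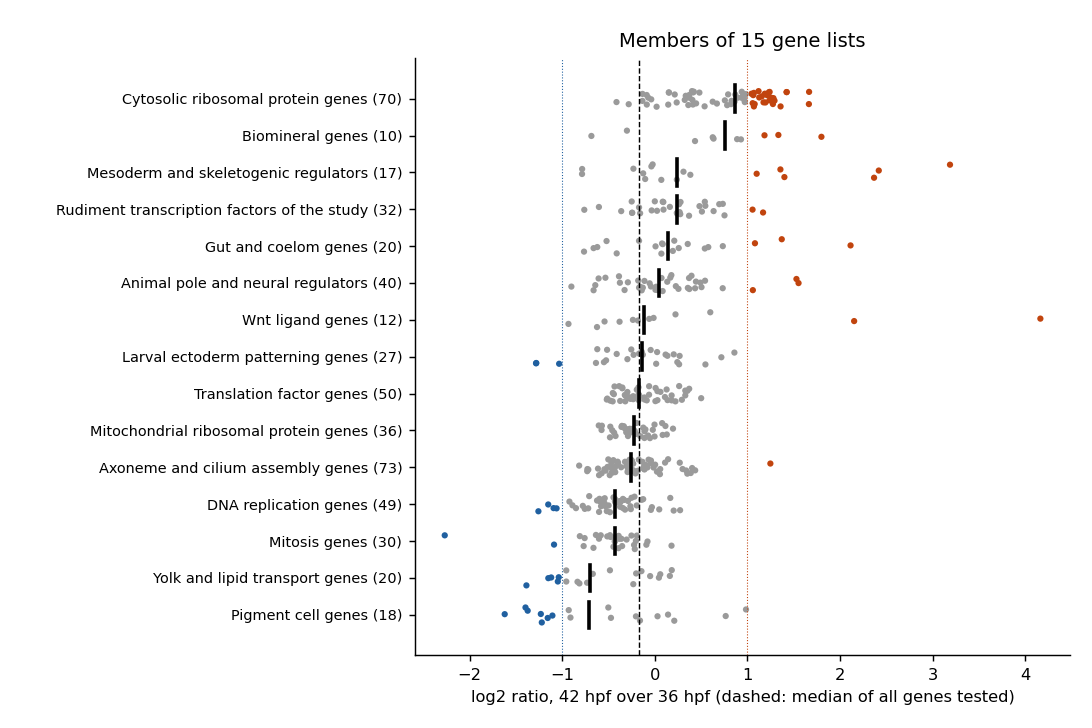
Each point is a tested member of 1 of 15 gene lists, with its log2 ratio of 42 hpf over 36 hpf on the x axis and the number tested in parentheses. Black bars are list medians, dotted lines mark 2-fold, and the dashed line is the median of all genes at −0.17; cytosolic ribosomal protein genes have the highest list median (0.86) and pigment cell genes the lowest (−0.71).

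Of 27 larval ectoderm patterning genes, 3 fell (11.1%, against 1.85% of all genes) and none rose. In the oral and Nodal network, 3 genes fell. *Univin*, a TGFβ ligand that supports Nodal signalling in sea urchins, had 122 UMIs at 42 hpf and 274 at 36 hpf (ratio 0.412, 0.330 to 0.512). *Gsc*, the homeobox gene goosecoid, had 92 UMIs at 42 hpf and 207 at 36 hpf (ratio 0.411, 0.318 to 0.528), and *Chordin*, a BMP antagonist, had 28 UMIs at 42 hpf and 53 at 36 hpf (ratio 0.489, 0.298 to 0.787). *Nodal* itself was at 35.7 CPM at 42 hpf and 52.2 at 36 hpf (ratio 0.683, 0.588 to 0.794), which passed no threshold, and was at 23.7, 5.25 and 5.11 CPM at the later ages. The median of the list was −0.14, near that of all genes. Cells with at least 2 larval ectoderm markers made up 2.72% at 42 hpf and 3.24% at 36 hpf after thinning, with overlapping intervals.

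Of the left ectoderm markers, *Prdm14_1* was at 234 CPM at 42 hpf and 378 at 36 hpf (ratio 0.619) and *Dlx* at 145 CPM at 42 hpf and 174 at 36 hpf, and neither passed 2-fold. Matrix genes moved both ways, with *Fn3f_29*, a fibronectin type III domain gene, at 82.6 CPM at 42 hpf and 209 at 36 hpf (ratio 0.396, 0.362 to 0.433) and a feature named *Fn3/Egf_2* at 28.7 CPM at 42 hpf and 7.39 at 36 hpf (ratio 3.89, 2.92 to 5.26). *Fn3/Egf_2* is 1 of 2 features counted together as the rudiment marker *Fn3/Egf-2*. Those 2 features summed to 644 CPM at 42 hpf and 407 at 36 hpf (ratio 1.58, 1.52 to 1.65).

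Markers of the putative rudiment ectoderm were found together in more cells at 42 hpf, while for the verified rudiment markers the intervals of both ages overlapped. Of 32 rudiment transcription factors that the study lists, 2 rose (6.25%, against 1.54% of all genes) and none fell. The median log2 ratio was 0.24. Those that rose were *PaxA*, a paired box gene (102 UMIs at 42 hpf and 42 at 36 hpf, ratio 2.25, 1.55 to 3.30), and a copy of the Notch target *Hey* (110 UMIs at 42 hpf and 49 at 36 hpf, ratio 2.08, 1.47 to 2.97). Another *Hey* copy, outside that list, lay at the threshold (29 UMIs at 42 hpf and 54 at 36 hpf, ratio 0.497), and its log2 ratio was inside 2-fold under 7 alternatives, between −0.99 and −0.62. The 3 features named *Hey* summed to 706 UMIs at 42 hpf and 441 at 36 hpf, a ratio of 1.48 (1.31 to 1.67). Cells with at least 2 putative rudiment ectoderm markers made up 5.34% (4.69 to 6.06) at 42 hpf and 3.87% (3.36 to 4.42) at 36 hpf after thinning, and those with verified rudiment markers 14.3% (13.3 to 15.4) at 42 hpf and 12.95% (12.1 to 13.9) at 36 hpf. The verified markers lay on both sides of 1, with *Fn3/Egf-2* at a ratio of 1.58, *Msx* at 1.20, *Wnt3* at 1.17, *Egfi* at 0.829 and *Dlx* at 0.838 over their features. The bZIP gene *Giant*, a marker of the putative rudiment ectoderm, was at 449 CPM at 42 hpf and 316 at 36 hpf (ratio 1.42), under the threshold. The study chose both sets on libraries that include these.

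Cells with markers of several further classes were more frequent in the 42 hpf library, but the intervals of both ages overlapped in each of these classes. After thinning, at least 2 markers were found for early mesoderm in 0.656% of cells at 42 hpf and 0.377% at 36 hpf, for the blastocoelar class in 1.43% at 42 hpf and 1.04% at 36 hpf, and for gut and left coelomic pouch in 0.492% at 42 hpf and 0.207% at 36 hpf. Animal pole markers were found together in 8.27% of cells at 42 hpf and 7.35% at 36 hpf. For neural markers the shares were 2.13% at 42 hpf and 1.66% at 36 hpf, and for posterior ectoderm 3.58% at 42 hpf and 3.28% at 36 hpf. Right coelomic pouch markers were found together in 3 thinned cells at 42 hpf and 1 at 36 hpf. The ciliary band class went the other way, 5.11% at 42 hpf and 5.69% at 36 hpf, also with overlapping intervals. The left ectoderm class was lower too, 0.726% (0.494 to 1.03) at 42 hpf and 1.38% (1.08 to 1.73) at 36 hpf, without overlap. As counted, its shares were 5.86% (5.17 to 6.60) at 42 hpf and 7.15% (6.47 to 7.88) at 36 hpf, with overlapping intervals. Skeletal markers were found together in 13 thinned cells at 42 hpf (0.305%) and 4 at 36 hpf (0.0754%), so this class was barely sampled at either age. The shares cover detected markers and are not counts of cell types.

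Of 40 animal pole and neural regulators tested, 3 rose (7.5%, against 1.54% of all genes) and none fell. The rising regulators were *Scratch*, a zinc finger gene of neuronal precursors (57 UMIs at 42 hpf and 18 at 36 hpf, ratio 2.93, 1.70 to 5.29), *Brn1/2/4*, a POU factor (53 UMIs at 42 hpf and 17 at 36 hpf, ratio 2.88, 1.64 to 5.31), and the zinc finger gene *Insm* (54 UMIs at 42 hpf and 24 at 36 hpf, ratio 2.08). The median of the list was 0.05. *Syt4*, a synaptotagmin, was at 28.0 CPM at 42 hpf and 15.3 at 36 hpf (ratio 1.84), and *Secrtag*, a neural marker, at 136 CPM at 42 hpf and 103 at 36 hpf (ratio 1.32). The remaining marker of the neural class, *CalmL1*, had a ratio of 0.971 (0.960 to 0.982) over its 8 features. In a list of 56 neuronal function genes, such as channels and receptors, 4 rose and 4 fell (7.14% each, against 1.54% and 1.85% of all genes). The median log2 ratio was −0.24, and the interval lay above 1 for 13 and below 1 for 22. Among those that fell was *Kcnk16*, a potassium channel gene (14 UMIs at 42 hpf and 47 at 36 hpf, ratio 0.276, 0.140 to 0.509), and among those that rose were 2 features named *Kcnk1* (ratios 2.24 and 2.34). The animal pole genes *Six3* (446 CPM at 42 hpf and 421 at 36 hpf) and *Hbn* (261 CPM at 42 hpf and 327 at 36 hpf) were within 2-fold.

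Yolk protein genes fell in part. Of 20 yolk and lipid transport genes tested, 5 fell and none rose. Over all genes tested, 1.85% fell and 1.54% rose, so a larger share fell in this list. The median log2 ratio of the list was −0.70. The 16 features named *Yp303* summed to 785 UMIs at 42 hpf and 1430 at 36 hpf (90.9 CPM at 42 hpf and 179 at 36 hpf), a ratio of 0.508 (0.465 to 0.555), which is just inside 2-fold. *Apob*, an apolipoprotein, had 11561 UMIs at 42 hpf and 11079 at 36 hpf in its main feature and did not change by this rule. The signalling receptor *Ptc*, the Hedgehog receptor Patched, rose (155 UMIs at 42 hpf and 66 at 36 hpf, ratio 2.17, 1.62 to 2.94), but its log2 ratio was 0.31 after thinning of cells to 500 UMIs.

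Some of the largest ratios rested on few cells. *HER_16524.t1*, a feature with no gene symbol, had 1971 UMIs at 42 hpf and 4 at 36 hpf, a ratio of 456, but 1857 of the 1971 lay in a single cell. *HER_7106.t1*, also unnamed, had 115 UMIs at 42 hpf and 4 at 36 hpf, with 66 of the 115 in 1 cell. Both were chosen after their values were seen. *ScratchX* had 46 UMIs in 9 cells at 42 hpf and 4 UMIs in 3 cells at 36 hpf, and *Sm37* lay in 12 cells at 42 hpf and 5 at 36 hpf. A ratio of sums over so few cells says little about larvae beyond these libraries.

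Several of the genes named for this step were also lower at 48 hpf than at 42 hpf, but both steps share the 42 hpf library, so the values are given side by side only. *Wnt9*, *Alx4* and *Wnt10* were at 13.4, 23.4 and 11.1 CPM at 42 hpf and at 2.45, 4.91 and 1.05 CPM at 48 hpf. *Mif4* and *Cryz_1* were at 592 and 127 CPM at 42 hpf and at 1021 and 175 CPM at 48 hpf. With each library thinned to 4193645 UMIs, 124 genes rose and 173 fell at the first step, of 9233 tested. The following steps gave 345 and 267, 622 and 82, and 70 and 933 genes.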

How the data were processed

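The authors aligned and counted the reads with Cell Ranger 3.1.0 and deposited whole-number UMI counts per feature and barcode, without normalization. The build and annotation are not given in the sources used here. Kept cells were summed per library and scaled to CPM (Python 3.11.15, numpy 2.4.6, scipy 1.17.1, pandas 2.3.3; R 4.3.3 with DESeq2 1.42.0 and edgeR 4.0.16 for the alternative factors only). Ratios were taken for genes with at least 50 UMIs over both libraries. A count of 0 was read as 3 counts, and features with the same symbol stayed separate. Named genes were the 15 with the highest lower bound and the 15 with the lowest upper bound of the ratio, up to 3 in each direction per list where the interval left out 1, and the study's cell markers; other members are given as list examples. The members and the 33 lists were chosen with earlier results of these data known. Thinning drew 500 UMIs per cell without replacement. No clustering, doublet caller or removal of free RNA was run. The markers *btub13* and *fbs-2* matched no feature, and *Fmo* had no UMI. Ratio recovery was tested on simulated data. Intervals cover counting error only, and nothing stated whether larvae came from separate cultures. Some genes are not reported here.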

Additional observations from a re-analysis of the deposited data

How the results depend on the processing

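The direction of each list and named gene held under most alternatives, while the counts of genes past 2-fold depended on the scaling and the minimum. Against 175 genes higher and 210 lower, DESeq2 size factors gave 121 lower genes, TMM factors 105, and a total without cytosolic ribosomal protein genes 121. The minimum of 10 UMIs gave 623 higher and 816 lower genes, that of 200 UMIs gave 75 and 70, and no minimum beyond 3 UMIs in either library gave 945 and 1327, since other genes were tested. A fold of 1.5 gave 475 higher and 1245 lower genes. Thinning cells to 500 UMIs gave 76 higher and 173 lower genes of 7267 tested, of which 52 were among the 175 and 53 among the 210, so that 30.5% of called genes were higher, against 45.5%. Leaving out Alx cells and pigment marker cells gave 136 lower genes. The other counts, with all barcodes, over 500 genes per cell, equal weight per cell, without the 10 most abundant genes or without the 5% of cells with the most UMIs, lay between 132 and 176 higher and 194 and 238 lower genes. Relative to all genes, the median log2 ratio of the pigment list was −0.53, and 0.21 without Alx cells and pigment marker cells. Pigment genes chose the cells left out, so the value of 0.21 is a description only. The median log2 ratio of nuclear receptor genes, relative to all genes, was 0.12, and −0.021 at a minimum of 200 UMIs. The log2 ratio of *Kcnk4* was −1.32, and 0.30 without Alx cells and pigment marker cells. The cause was not tested. Of 1118 alternative values for the 94 named genes past 2-fold, this was the 1 that changed direction, and 106 others moved beyond their interval. Of the 94 genes, 39 lay inside 2-fold under at least 1 alternative, among them 22 with equal weight per cell, 19 without Alx cells and pigment marker cells, 13 after thinning, 12 with TMM factors and 8 with DESeq2 size factors. Equal weight per cell took the log2 ratios of *FoxF* (0.83), *MyoD2* (0.92), *Brn1/2/4* (0.97) and *Pks1* (−0.93) inside 2-fold, and DESeq2 size factors those of *Chordin* (−0.90) and *Lrp6L_1* (−0.96). Without the 5% of cells with the most UMIs, *HER_16524.t1* had a log2 ratio of 4.56 in place of 8.83. The ribosomal total, the marker shares without the deepest cells and the removal of Alx and pigment marker cells were chosen after seeing the data. No paired analysis was possible because each age had 1 library, and for the same reason no replicate could be left out. Depth limits detection in single cells, most of all for genes with few UMIs.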

Other observations

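Outside the groups described above, a broadly detected receptor subunit and surface receptors moved between the ages. *Chrna9*, annotated as an acetylcholine receptor subunit, had 33765 UMIs at 42 hpf and 14385 at 36 hpf (3911 CPM at 42 hpf and 1801 at 36 hpf), a ratio of 2.17 (2.13 to 2.21). Among thinned cells it was found in 77.98% at 42 hpf and 55.5% at 36 hpf, and the ratio was 1.95 in Alx cells, 2.14 in pigment marker cells and 2.13 in the other cells. Among 71 G protein-coupled receptor genes tested, 3 rose (4.23%) and 12 fell (16.9%), against 1.54% and 1.85% of all genes. Their median log2 ratio was −0.26. *Gpr133L_2* had 225 UMIs at 42 hpf and 484 at 36 hpf (ratio 0.430) and *Npffr2L_4* had 220 UMIs at 42 hpf and 505 at 36 hpf (ratio 0.403), and without Alx cells and pigment marker cells their log2 ratios were −0.31 and −0.08.

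Of 260 solute carrier genes, 8 rose (3.08%) and 6 fell (2.31%), against 1.54% and 1.85% of all genes tested. Of 103 matrix and adhesion genes, 7 rose (6.80%) and 5 fell (4.85%). The mitochondrial dicarboxylate carrier *Slc25a10* had 632 UMIs at 42 hpf and 1236 at 36 hpf (ratio 0.473, with a log2 ratio of −0.81 after thinning), of which 442 at 42 hpf and 1048 at 36 hpf lay in pigment marker cells. Of 42 cytochrome P450 genes none passed 2-fold, and *Cyp27L* came closest, at 337 CPM at 42 hpf and 169 at 36 hpf (ratio 1.99). Of 73 axoneme and cilium assembly genes, 1 rose (1.37%, against 1.54% of all genes). It was *Dynlc1-1* (354 UMIs at 42 hpf and 138 at 36 hpf, ratio 2.37), with log2 ratios of 0.94 with equal weight per cell and 0.83 after thinning. The 10 *Dynlc2* copies were at 78.5 CPM at 42 hpf and 81.4 at 36 hpf, while they were at 189, 890 and 588 CPM at 48, 56 and 60 hpf. Cytochrome c was lower from both of its features, *Cycs_1* (102 UMIs at 42 hpf and 255 at 36 hpf) and *Cycs* (58 UMIs at 42 hpf and 157 at 36 hpf).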
